A study of Mus musculus with 8 samples.

Results

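The genes described here encode 49 enzymes of amino acid and one-carbon catabolism in mouse liver, taken from a table of 55416 genes by their symbols. They were compared by the amino acid they act on, as 5 enzymes of aromatic (tyrosine) breakdown, 6 of the tryptophan to kynurenine route, 9 of sulphur amino acid and methyl group metabolism, 11 of glycine and serine, 4 of histidine, and 11 of the branched-chain amino acids, with 3 proline enzymes set beside them. The rule goes by symbol and uses no measured value. All 49 reached 1 FPKM (fragments per kilobase of exon scaled to the assigned fragments of the library) in at least 2 libraries and entered the tests, and the lowest library held 124 fragments of the least covered member, Afmid.

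Bulk RNA sequencing was done on whole liver of 4 groups of mice, with 2 libraries in each group and 8 in all. Injured KO livers came from GlulΔlyz2 mice given 1 mg/kg lipopolysaccharide (LPS, a bacterial cell wall component) with 200 mg/kg D-galactosamine (D-GalN, which blocks RNA synthesis in hepatocytes) into the peritoneum. Injured floxed livers came from Glul flox/flox mice given the same injection. H2O KO livers and H2O floxed livers came from mice of the same genotypes injected with H2O. Both genotypes carry the floxed allele of Glul, the gene for glutamine synthetase, and in GlulΔlyz2 mice, as the name says, it is deleted by Cre under Lyz2, a gene of macrophages, monocytes and neutrophils, so that hepatocytes are not the target. The sources used here do not give age, sex, strain or the time from injection to collection. Nothing says that the 2 libraries within a group are from different animals, and a p-value here therefore reflects the spread between libraries, which may be technical.

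Hepatocytes are the main site of breakdown of most amino acids, whose nitrogen goes to glutamate, glutamine and urea while the carbon enters central metabolism. Breakdown of serine, glycine, histidine and methionine also feeds or drains the folate and methyl group pools, which is why these routes are called one-carbon metabolism. Many of the enzymes are liver-specific, and several, with Tat and Tdo2 as textbook cases, are induced by glucocorticoids.

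The libraries held between 18381670 and 24799143 assigned fragments, and 1 fragment in a gene of 1 kb was worth between 0.0403 and 0.0544 FPKM. All 10 hepatocyte markers were present in every group, with summed levels between 31040 and 48840 FPKM. Glul itself, in a tissue where hepatocytes hold most of it, had 74.6 and 90.1 FPKM in KO and 358 and 237 FPKM in floxed livers after LPS/D-GalN. After H2O Glul had 89.8 and 134 FPKM in KO and 107 and 106 FPKM in floxed livers, where the genotypes overlap. Mitochondrial genes took 10.5% and 12.7% of fragments in KO and 7.03% and 6.98% in floxed livers after LPS/D-GalN, against 22.9% and 13.6% in KO and 15.6% and 12.6% in floxed livers after H2O. In bulk tissue, fewer hepatocytes and less RNA per hepatocyte cannot be told apart.

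Promoters are shown for the 6 members with a RefSeq entry and the 3 largest negative and 3 largest positive log2 differences between injured KO and injured floxed livers, namely Tat, Tdo2 and Kmo, lower in injured KO livers, and Prodh2, Gnmt and Bhmt2, higher there. Each is the 250 bases before the RefSeq start of the gene on build GRCm38.p6, written in the direction of transcription. They lie at chr8:109990186-109990435 on the plus strand (Tat), chr3:81975729-81975978 on the minus strand (Tdo2), chr1:175631943-175632192 on the plus strand (Kmo), chr7:30493408-30493657 on the plus strand (Prodh2), chr17:46729166-46729415 on the minus strand (Gnmt) and chr13:93674303-93674552 on the minus strand (Bhmt2). Capitals mark the motifs found among 6 searched on both strands. These were TATAAA, TTCNNNGAA (the STAT site), AGAACA (the glucocorticoid receptor half-site), TTGCNNAA (the C/EBP site), CAAAGTCCA (an HNF4 site) and AGGTCA (the nuclear receptor half-site).
Tat: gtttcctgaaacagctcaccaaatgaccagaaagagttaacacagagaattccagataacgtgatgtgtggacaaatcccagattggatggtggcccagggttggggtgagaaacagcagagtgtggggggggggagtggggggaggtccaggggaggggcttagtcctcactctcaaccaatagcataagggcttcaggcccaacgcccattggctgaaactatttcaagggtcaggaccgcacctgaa
Tdo2: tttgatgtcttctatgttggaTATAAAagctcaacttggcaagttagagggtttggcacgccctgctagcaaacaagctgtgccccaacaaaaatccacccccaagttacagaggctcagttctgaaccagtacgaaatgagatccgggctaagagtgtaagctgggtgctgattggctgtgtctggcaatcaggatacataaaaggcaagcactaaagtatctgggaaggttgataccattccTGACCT
Kmo: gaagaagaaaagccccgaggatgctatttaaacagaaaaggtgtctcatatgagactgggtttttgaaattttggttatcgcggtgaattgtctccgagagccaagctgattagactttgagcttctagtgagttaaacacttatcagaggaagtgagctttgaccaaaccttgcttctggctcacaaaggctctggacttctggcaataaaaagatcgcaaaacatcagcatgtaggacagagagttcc
Prodh2: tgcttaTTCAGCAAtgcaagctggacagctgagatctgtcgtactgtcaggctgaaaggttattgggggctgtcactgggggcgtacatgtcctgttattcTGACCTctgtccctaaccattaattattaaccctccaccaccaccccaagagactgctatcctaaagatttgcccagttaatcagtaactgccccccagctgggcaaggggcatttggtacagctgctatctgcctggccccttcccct
Gnmt: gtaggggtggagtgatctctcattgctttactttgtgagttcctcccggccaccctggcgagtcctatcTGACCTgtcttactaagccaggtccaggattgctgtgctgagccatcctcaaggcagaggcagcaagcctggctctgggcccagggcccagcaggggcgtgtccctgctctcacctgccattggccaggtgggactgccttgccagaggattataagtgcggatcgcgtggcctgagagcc
Bhmt2: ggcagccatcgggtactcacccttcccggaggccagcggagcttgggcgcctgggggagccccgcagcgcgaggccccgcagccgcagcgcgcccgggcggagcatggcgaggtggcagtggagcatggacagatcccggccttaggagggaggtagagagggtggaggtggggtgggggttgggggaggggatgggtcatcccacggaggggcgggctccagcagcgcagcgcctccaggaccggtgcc
TGACCT, the reverse complement of AGGTCA, stood 6 bases before the start in Tdo2, 149 before it in Prodh2 and 181 before it in Gnmt. TATAAA was found in Tdo2, far from the annotated start, at 229 bases before it. Prodh2 also held TTCAGCAA, a reverse match of the C/EBP site, 244 bases before the start. None of the 6 motifs was present in this window of Tat, Kmo or Bhmt2. AGGTCA was present in 3 of these 6 promoters, in 14% of 32851 mouse promoters of this length and in 12 of the 41 members with a RefSeq entry, and TATAAA in 12.4% of promoters and 5 of the 41. TTGCNNAA was present in 9.56% of promoters and 3 of the 41 members. These matches describe letters, and no binding was measured.

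Most of the enzymes were lower after LPS/D-GalN in both genotypes. A gene is said to have risen or fallen where its adjusted p (limma on log2(FPKM + 1), Benjamini-Hochberg over 13708 genes) was under 0.05, and log2 changes are given with their standard error (SE). Differences between genotypes and interactions are on the same log2 scale. In KO livers 37 members fell, 4 rose and 8 did not pass, with a median log2 change of -0.96 against -0.28 over all genes tested. In floxed livers 33 fell, 6 rose and 10 did not pass, with a median of -1.13 against -0.28 over all genes. Over all genes tested, 40.7% fell and 22.3% rose in KO livers, while 38.8% fell and 18.5% rose in floxed livers. Averaged over both genotypes 37 members fell and 4 rose, beside 45.1% and 24.1% of all genes. Injured and H2O libraries did not overlap for 41 members that were lower and 4 that were higher in KO livers, and for 36 lower and 9 higher in floxed livers, beside 79.9% and 83.0% of all genes in either direction. Among called genes the higher share was 35.4% in KO and 32.3% in floxed livers, and 48.2% and 49.7% after median centring, under which 32 members fell and 4 rose in KO livers and 29 fell and 7 rose in floxed livers. Of the 49 members, 28 fell in both genotypes, and Sds and Sdsl rose in both. Gnmt rose in KO and fell in floxed livers, and Kmo and Mat1a fell in KO and rose in floxed livers.

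**Figure D1:**
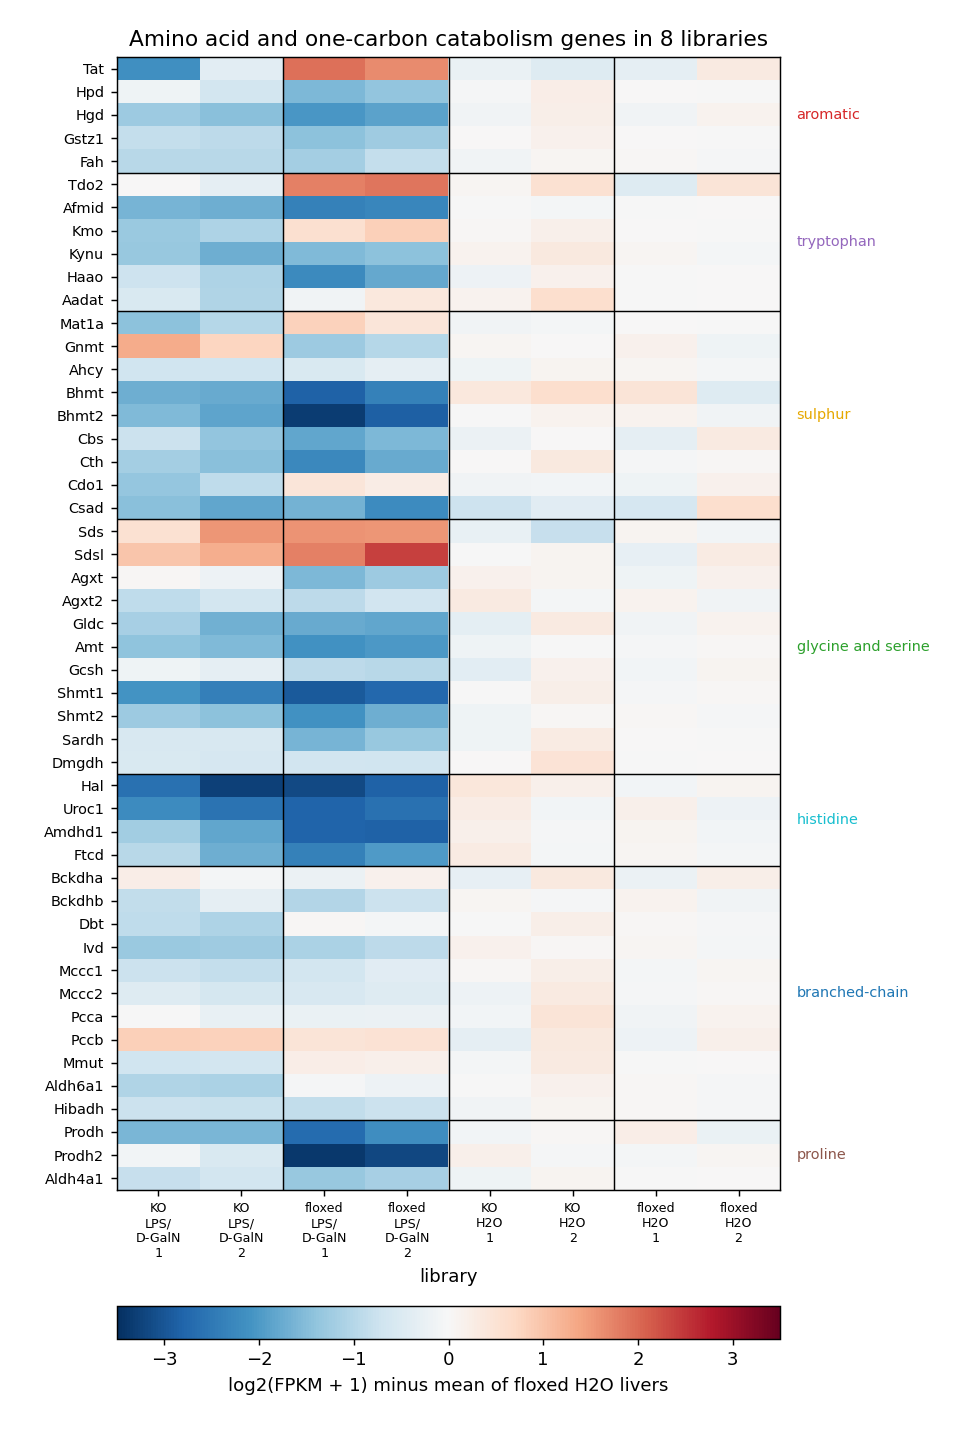
Each of the 49 members (rows, by amino acid group) in the 8 libraries (columns), as log2(FPKM + 1) minus the mean of the H2O floxed livers, with red above and blue below that mean. The histidine rows are blue in all 4 injured libraries, while Tat, Tdo2, Kmo, Mat1a and Cdo1 are redder in the injured floxed libraries than in the injured KO libraries.

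After H2O no member differed between KO and floxed livers, and none had an unadjusted p under 0.05 in that comparison. Over all genes 0.0073% were lower and 0.0% were higher in H2O KO livers by limma at an adjusted p under 0.05, and 780 genes had an unadjusted p under 0.05. The largest differences among the members were -0.55 ± 0.38 for Csad and -0.55 ± 0.34 for Sds, neither of which passed (adjusted p = 1). KO and floxed libraries overlapped for 40 of the 49 members, and lay apart for 6 that were higher and 3 that were lower, beside 34.7% of all genes in either direction.

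In injured livers the genotypes parted, in both directions, among the members as over all genes tested. In injured KO against injured floxed livers 19 members were higher, 10 were lower and 20 did not pass, with a median log2 difference of 0.30 against -0.04 over all genes. Over all genes 25.3% were higher and 27.2% lower, so the share of members lower, 10 of 49, was not above the background. The lean to the higher side depended on the scaling. Under quantile normalisation 12 members were higher and 12 lower, with a median log2 difference of 0.01 against -0.09 over all genes. Groups did not overlap for 25 members that were higher and 14 that were lower, together near the 78.6% of all genes in either direction. Proline, glycine and serine enzymes were mostly on the higher side, with 3 of 3 and 6 of 11 members passing, the tryptophan route split into 2 higher and 3 lower, and branched-chain enzymes had 3 lower and none higher. Leaving out the first injured floxed library cut the higher members to 8, leaving out the first injured KO library cut them to 11, and quantile normalisation gave 12, whereas the lower members stayed between 8 and 10 when any 1 library was left out. The 16 members that passed in all 18 settings tried were 8 higher (Prodh2, Gnmt, Bhmt2, Agxt, Amdhd1, Haao, Hpd and Afmid) and 8 lower (Tat, Tdo2, Kmo, Mat1a, Cdo1, Aldh6a1, Dbt and Mmut).

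Markers of other cells moved with the same comparison. All 6 neutrophil markers were higher in injured KO livers, with summed levels of 929 and 971 FPKM, against 92.5 and 155 FPKM in the floxed livers. So were all 5 tested of 6 monocyte and macrophage markers, with sums of 55.2 and 44.9 FPKM in KO and 12.3 and 16.3 FPKM in floxed livers. Red blood cell genes summed to 25490 and 3654 FPKM in KO and to 83.5 and 88.1 FPKM in floxed livers of this comparison. Of the 10 hepatocyte markers 3 were higher and 2 lower. No marker of these lists was at 0 in both libraries of an injured group.

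Markers of the resident cells of the liver were higher in injured KO livers as well, and none was lower. Of the 4 Kupffer cell markers 3 were higher, with sums of 94.9 and 52.1 FPKM in KO and 15.4 and 20.3 FPKM in floxed livers. Endothelial markers were higher for 2 of 4, with 71.6 and 44.6 FPKM in KO and 9.56 and 12.5 FPKM in floxed livers. So were 2 of 4 stellate cell markers, with 88.8 and 47.1 FPKM in KO and 28.7 and 18.4 FPKM in floxed livers. In these 3 lists the injured KO and injured floxed sums did not overlap. Cholangiocyte markers did overlap, with 82.2 and 69.4 FPKM in KO and 74.5 and 45.2 FPKM in floxed livers, and 2 of 4 were higher. Lymphocyte markers were low, with B cell sums of 9.58 and 8.14 FPKM in KO and 1.76 and 0.956 FPKM in floxed livers, where 2 of 3 tested were higher. The single tested T and NK cell marker was higher too, with sums of 3.46 and 2.18 FPKM in KO and 0.744 and 0.551 FPKM in floxed livers.

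Under injury itself, neutrophil markers rose for 6 of 6 in both genotypes, whose H2O sums were 4.06 and 2.97 FPKM in KO and 4.63 and 2.36 FPKM in floxed livers. The 5 tested monocyte and macrophage markers rose in KO livers, while 2 rose and 2 fell in floxed livers. Kupffer cell markers fell for 4 of 4 in floxed livers and rose for 1 of 4 in KO livers, beside H2O sums of 64.7 and 64.8 FPKM in KO and 139 and 102 FPKM in floxed livers. Of the hepatocyte markers 4 rose and 1 fell in KO livers, and 2 rose and 2 fell in floxed livers. The part of these cells in the enzyme changes and differences was not tested.

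Exon length also went with the log2 values. Between injured KO and injured floxed livers the correlation of the difference with log2 exon length, across genes, which are not independent replicates, was -0.22 (Pearson's r) and -0.28 (Spearman's rho) over 13466 genes, and -0.07 and -0.10 over the 49 members. For the change under injury in KO livers it was -0.47 and -0.43 over the members, against -0.04 and -0.09 over all genes, so the longer members had the lower values. In floxed livers it was -0.22 and -0.21 over the members and 0.10 and 0.14 over all genes. The part of length in these values was not tested.

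**Figure D2:**
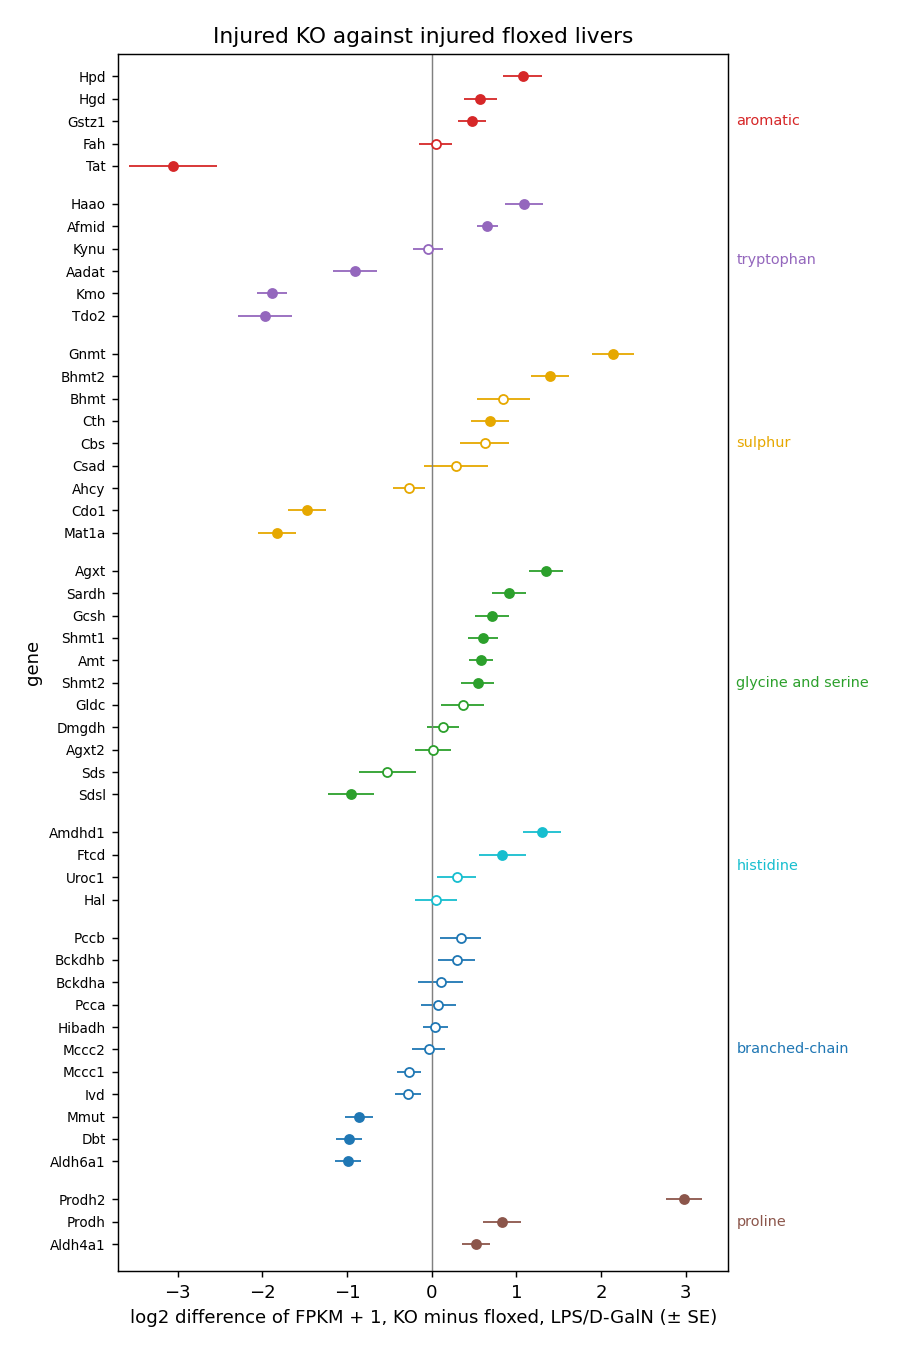
Log2 difference of FPKM + 1, injured KO minus injured floxed livers, for each member with its SE as a bar, ordered within each amino acid group, with filled points for members that passed. The points run from -3.05 for Tat to 2.98 for Prodh2, and all 3 proline points and all 4 histidine points lie to the right of 0.

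In tyrosine breakdown Tat was lower in injured KO livers. Tat, the aminotransferase that takes the first and rate-limiting step, had 129.6 and 449 FPKM in KO and 2219.9 and 1823 FPKM in floxed livers after LPS/D-GalN. After H2O Tat had 489.7 and 426 FPKM in KO and 464 and 718 FPKM in floxed livers. Injured KO livers were within or below the H2O range, with the first library low, and both injured floxed livers were the highest of the 8. In floxed livers it rose with a log2 change of 1.80 ± 0.52 (adjusted p = 0.0196), and in KO livers the change was -0.92 ± 0.52 (adjusted p = 0.159), which did not pass. That change in KO livers depended on the library left out, being -0.02 (adjusted p = 0.96) without the first injured KO library and -1.81 (adjusted p = 0.00536), which passed, without the second. The difference between injured KO and injured floxed livers was -3.05 ± 0.52 (adjusted p = 0.00228), and the genotype by injury interaction was -2.72 ± 0.74 (adjusted p = 0.0249). That interaction was lost without either H2O KO library (adjusted p = 0.067 and 0.0543), without the first H2O floxed library (0.0766) and without either injured floxed library (0.085 and 0.0603). The rise of Tat in floxed livers rested on few libraries, since its adjusted p was 0.104 without the first H2O floxed library and 0.0998 and 0.0594 without the first or the second injured floxed library.

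Hpd, Hgd and Gstz1, which act after Tat, were higher in KO than in floxed livers after injury. Hpd, which turns the keto acid made by Tat into homogentisate, had 465 and 329 FPKM in KO and 173 and 198 FPKM in floxed livers after LPS/D-GalN. After H2O Hpd had 496 and 607 FPKM in KO and 519 and 511 FPKM in floxed livers. Both injured KO livers lay below the H2O livers, the first near them and the second lower, and both injured floxed livers lay far below them. Hpd fell in floxed livers with a log2 change of -1.47 ± 0.23 (adjusted p = 0.00124), and the KO change of -0.49 ± 0.23 (adjusted p = 0.0988) did not pass. The KO change did pass under quantile normalisation (-0.71, adjusted p = 0.0102) and under scaling without mitochondrial and haemoglobin genes (-0.58, adjusted p = 0.0378). Without the first injured KO library the KO change of Hpd was -0.74. Its difference between injured KO and injured floxed livers was 1.08 ± 0.23 (adjusted p = 0.006). For Hgd, the dioxygenase that opens the homogentisate ring, the levels were 58.8 and 51.4 FPKM in KO and 34.3 and 38.99 FPKM in floxed livers after LPS/D-GalN. After H2O Hgd had 133 and 168 FPKM in KO and 133 and 157 FPKM in floxed livers. The injured KO livers lay between the injured floxed and the H2O livers. Gstz1, the isomerase of the next step, had 73.2 and 69.1 FPKM in KO and 47.6 and 54.5 FPKM in floxed livers after LPS/D-GalN. After H2O Gstz1 had 133 and 146 FPKM in KO and 133 and 129 FPKM in floxed livers. Hgd and Gstz1 were lower in every injured library than in every H2O library, and higher in both injured KO than in both injured floxed livers. The differences of injured KO against injured floxed livers were small, 0.57 ± 0.20 (adjusted p = 0.0414) for Hgd and 0.47 ± 0.17 (adjusted p = 0.0451) for Gstz1, and passed in 10 and 6 of the 18 settings. Under quantile normalisation the Gstz1 difference was -0.01. Gstz1 shares 12.2% of its exon length with other annotated genes. Fah, the last enzyme of the route, fell, with log2 changes of -0.94 ± 0.19 (adjusted p = 0.0038) in KO and -1.02 ± 0.19 (adjusted p = 0.00313) in floxed livers and did not pass between injured groups, where it had 150.4 and 149 FPKM in KO and 128 and 163 FPKM in floxed livers.

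The tryptophan route split by step. Its entry enzyme, Tdo2, which opens the indole ring, had 112 and 89.9 FPKM in KO and 381 and 408 FPKM in floxed livers after LPS/D-GalN. After H2O Tdo2 had 116 and 162 FPKM in KO and 80.9 and 152 FPKM in floxed livers. Both injured floxed livers stood well above the other 6 libraries, while injured KO livers were within the H2O range. In floxed livers it rose with a log2 change of 1.82 ± 0.32 (adjusted p = 0.00209), in KO livers the change was -0.45 ± 0.32 (adjusted p = 0.252) and did not pass, and the interaction was -2.27 ± 0.45 (adjusted p = 0.00819). Kmo, which hydroxylates kynurenine, had 21.2 and 24.6 FPKM in KO and 78.5 and 96.6 FPKM in floxed livers after LPS/D-GalN. After H2O Kmo had 54.7 and 59.9 FPKM in KO and 54.2 and 52.4 FPKM in floxed livers. Injured floxed livers were the highest and injured KO livers the lowest of the 8, with no overlap. It rose with a log2 change of 0.70 ± 0.18 (adjusted p = 0.0112) in floxed livers, fell with a log2 change of -1.29 ± 0.18 (adjusted p = 0.000539) in KO livers, and differed between injured KO and injured floxed livers by -1.89 ± 0.18 (adjusted p = 0.00029). Its rise in floxed livers was lost without the first or the second H2O floxed library (adjusted p = 0.0519 and 0.0631) and without the second injured floxed library (adjusted p = 0.078).

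Haao, the dioxygenase that leads towards quinolinate and NAD, showed the opposite order, with 91.8 and 71.7 FPKM in KO and 32.2 and 43.8 FPKM in floxed livers after LPS/D-GalN. After H2O Haao had 136 and 169.9 FPKM in KO and 151 and 156 FPKM in floxed livers. It fell in both genotypes, with an interaction of 1.10 ± 0.32 (adjusted p = 0.0311) that passed in 10 of 17 settings. Injured KO livers exceeded injured floxed livers by 1.09 ± 0.23 (adjusted p = 0.00526). Afmid, the formamidase that releases kynurenine, had 3.69 and 3.41 FPKM in KO and 1.80 and 1.97 FPKM in floxed livers after injury, against 13.2 and 12.9 FPKM in KO and 13.3 and 13.5 FPKM in floxed livers after H2O. Its difference between injured groups was 0.66 ± 0.13 (adjusted p = 0.00359), with 46.6% of its exon length shared with other annotated genes. Aadat, an aminotransferase that makes kynurenic acid, had 16.6 and 11.3 FPKM in KO and 22.2 and 31.6 FPKM in floxed livers after LPS/D-GalN. After H2O Aadat had 26.7 and 36.9 FPKM in KO and 24.1 and 24.5 FPKM in floxed livers. Injured KO livers were the lowest libraries and the injured floxed livers lay on either side of the H2O floxed livers, and the difference between injured groups was -0.90 ± 0.26 (adjusted p = 0.02), lost (adjusted p = 0.108) without the second injured KO library and (adjusted p = 0.128) without the second injured floxed library. Kynu, which cleaves kynurenine and its hydroxylated form, fell, with log2 changes of -1.75 ± 0.18 (adjusted p = 0.000135) in KO and -1.48 ± 0.18 (adjusted p = 0.000401) in floxed livers, with a difference of -0.04 ± 0.18 (adjusted p = 0.857) between injured groups that did not pass.

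**Figure D3:**
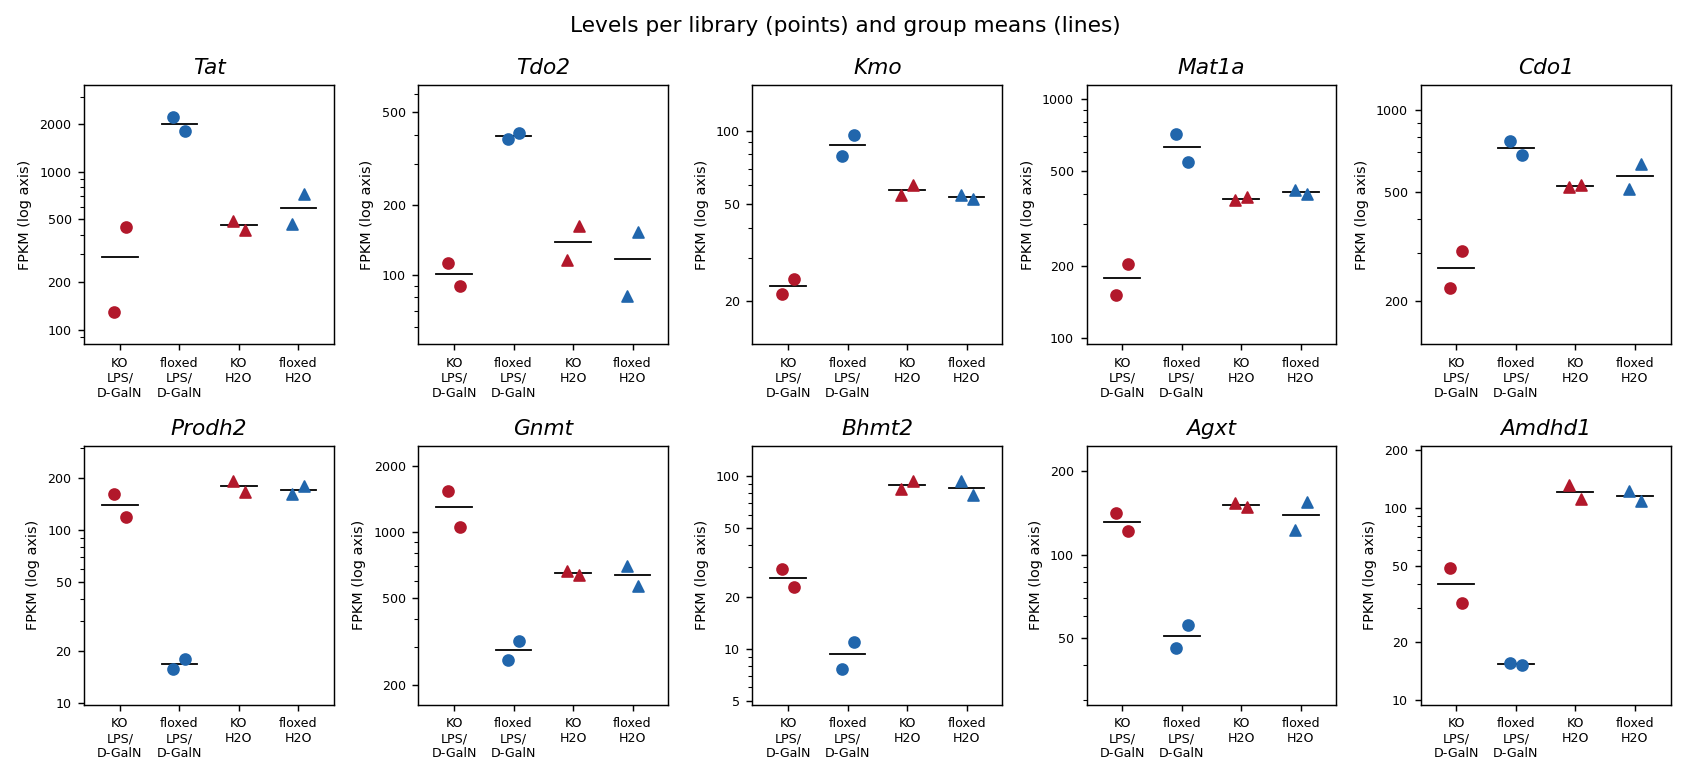
FPKM of 10 members in each library (points, log axis) with the mean of each group (line), in red for KO and blue for floxed livers, with circles for LPS/D-GalN and triangles for H2O. In Tat, Tdo2, Kmo, Mat1a and Cdo1 the injured floxed points are the highest, and in Prodh2, Gnmt, Bhmt2, Agxt and Amdhd1 the injured floxed points are the lowest.

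In the methyl cycle, Mat1a was lower and Gnmt higher in injured KO livers. Mat1a, the liver form of the enzyme that makes S-adenosylmethionine, had 150.4 and 203 FPKM in KO and 714 and 542 FPKM in floxed livers after LPS/D-GalN. After H2O Mat1a had 376 and 388 FPKM in KO and 413 and 401 FPKM in floxed livers. Both injured KO livers were below, and both injured floxed livers above, every H2O library. It fell with a log2 change of -1.12 ± 0.23 (adjusted p = 0.00344) in KO livers, and its rise in floxed livers, 0.61 ± 0.23 (adjusted p = 0.0499), was at the threshold and passed in 8 of 18 settings. Gnmt, which uses S-adenosylmethionine to methylate glycine to sarcosine, had 1541 and 1054 FPKM in KO and 261 and 318 FPKM in floxed livers after LPS/D-GalN. After H2O Gnmt had 666 and 634 FPKM in KO and 701 and 568 FPKM in floxed livers. Here the injured KO livers were the highest and the injured floxed livers the lowest libraries. It rose with a log2 change of 0.97 ± 0.25 (adjusted p = 0.0102) in KO livers. That call was lost under quantile normalisation (0.50, adjusted p = 0.0959) and without the first injured KO library (0.70). The log2 change of Gnmt in floxed livers was -1.13 ± 0.25 (adjusted p = 0.00597), a call lost without the first injured floxed library. Between injured groups Mat1a differed by -1.83 ± 0.23 (adjusted p = 0.000674) and Gnmt by 2.14 ± 0.25 (adjusted p = 0.000535), and both interactions passed under each setting tried.

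Transcripts of homocysteine remethylation were low in all injured livers. Bhmt2, a methyltransferase related to Bhmt, had 28.8 and 22.9 FPKM in KO and 7.60 and 10.97 FPKM in floxed livers after LPS/D-GalN. After H2O Bhmt2 had 84.4 and 93.7 FPKM in KO and 93.9 and 77.6 FPKM in floxed livers. All injured livers lay below all H2O livers, and injured KO above injured floxed livers, with a difference of 1.40 ± 0.22 (adjusted p = 0.00162) between injured groups. Bhmt, the betaine-dependent enzyme, fell, with log2 changes of -2.21 ± 0.32 (adjusted p = 0.000642) in KO and -2.59 ± 0.32 (adjusted p = 0.000413) in floxed livers, with 202 and 193 FPKM in KO and 92.8 and 129 FPKM in floxed livers after injury. That difference, 0.85 ± 0.32 (adjusted p = 0.0541), did not pass, though it did in 7 of the 18 settings. Bhmt and Bhmt2 are close paralogues, and reads that match both could have been split between them.

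Cysteine enzymes divided as well. Cdo1, the dioxygenase that commits cysteine to taurine and sulphate, had 223 and 306 FPKM in KO and 772 and 684 FPKM in floxed livers after LPS/D-GalN. After H2O Cdo1 had 524 and 533 FPKM in KO and 514 and 634 FPKM in floxed livers. Injured KO livers were the lowest and injured floxed livers the highest, with a difference of -1.47 ± 0.23 (adjusted p = 0.00146) and an interaction of -1.36 ± 0.32 (adjusted p = 0.0148). The transsulphuration enzymes Cbs and Cth, which turn homocysteine into cysteine, fell in both genotypes. The KO call of Cbs was lost with no filter (log2 change -0.97, adjusted p = 0.0607). It was also lost without the second H2O KO library (-0.86) and without the second injured KO library (-0.64). Cth changed by -1.49 ± 0.22 (adjusted p = 0.000813) in KO and -2.01 ± 0.22 (adjusted p = 0.000277) in floxed livers and was higher in injured KO livers by 0.69 ± 0.22 (adjusted p = 0.0336), which passed in 11 of the 18 settings. The difference of Cbs between injured groups, 0.63 ± 0.29 (adjusted p = 0.104), did not pass. Csad, which makes the precursor of taurine, changed by -1.09 ± 0.38 (adjusted p = 0.0359) in KO livers, a call held in 10 of the 18 settings, and by -1.93 ± 0.38 (adjusted p = 0.00355) in floxed livers. Ahcy, the hydrolase of S-adenosylhomocysteine, changed by -0.66 ± 0.19 (adjusted p = 0.0173) in KO and -0.42 ± 0.19 (adjusted p = 0.0952) in floxed livers, of which the KO change passed. Settings in which its KO call was lost included median centring (adjusted p = 0.093) and a fit of only the groups compared (adjusted p = 0.0837). That call was also lost without the second H2O KO library, where the change was -0.54, and without either injured KO library. The floxed change passed under quantile normalisation (adjusted p = 0.044) and under scaling without mitochondrial and haemoglobin genes (adjusted p = 0.028).

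Transcripts of serine dehydration rose in both genotypes while most of those of glycine breakdown fell. Sdsl, a serine dehydratase-like enzyme, had 18.7 and 23.2 FPKM in KO and 32.9 and 51.6 FPKM in floxed livers after LPS/D-GalN. After H2O Sdsl had 8.92 and 9.67 FPKM in KO and 7.16 and 11.1 FPKM in floxed livers. Injured libraries lay above H2O libraries in both genotypes, and injured KO below injured floxed livers. It rose with a log2 change of 1.08 ± 0.27 (adjusted p = 0.00879) in KO and 2.08 ± 0.27 (adjusted p = 0.000522) in floxed livers. The KO rise did not pass in every setting, and was 0.93 without the second injured KO library. The difference between injured groups was -0.95 ± 0.27 (adjusted p = 0.0191). That difference was lost without the first injured KO library (adjusted p = 0.106) and without the second injured floxed library (adjusted p = 0.122). Sds, the serine dehydratase that yields pyruvate, rose with a log2 change of 1.58 ± 0.34 (adjusted p = 0.00432) in KO and 1.56 ± 0.34 (adjusted p = 0.00546) in floxed livers, with 29.6% of its exon length shared with other annotated genes. It had 134 and 270.2 FPKM in KO and 274 and 274 FPKM in floxed livers after injury, a difference of -0.52 ± 0.34 (adjusted p = 0.227) that did not pass, but did without the second injured KO library (-1.02, adjusted p = 0.0232).

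Agxt, the aminotransferase that detoxifies glyoxylate to glycine, had 141 and 121 FPKM in KO and 46.05 and 55.96 FPKM in floxed livers after LPS/D-GalN. After H2O Agxt had 153 and 149 FPKM in KO and 123 and 154 FPKM in floxed livers. In injured KO livers it remained near the H2O livers, and both injured floxed livers were lower than the other 6 libraries. The difference between injured groups was 1.35 ± 0.20 (adjusted p = 0.00124) and the interaction 1.22 ± 0.28 (adjusted p = 0.0139). Sardh, which demethylates the sarcosine made by Gnmt, had 61.5 and 61.7 FPKM in KO and 28.9 and 35.98 FPKM in floxed livers after LPS/D-GalN. After H2O Sardh had 81.2 and 111 FPKM in KO and 91.9 and 89.8 FPKM in floxed livers. It fell in both genotypes, though in KO livers in 9 of the 18 settings. Injured KO exceeded injured floxed livers by 0.91 ± 0.21 (adjusted p = 0.00753), a call lost without the first injured floxed library (adjusted p = 0.0609), and the interaction of 0.85 ± 0.29 (adjusted p = 0.0546) did not pass. Gcsh, the carrier protein of the glycine cleavage system, had 36.6 and 32.4 FPKM in KO and 21.1 and 20.1 FPKM in floxed livers after LPS/D-GalN. After H2O Gcsh had 31.4 and 45.4 FPKM in KO and 38.3 and 43.1 FPKM in floxed livers. It fell in floxed livers with a log2 change of -0.95 ± 0.20 (adjusted p = 0.00544), and the KO change of -0.13 ± 0.20 (adjusted p = 0.596) did not pass, yet the interaction of 0.82 ± 0.29 (adjusted p = 0.06) did not pass either.

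The rest of the glycine and serine group fell in both genotypes. Shmt1, the cytosolic hydroxymethyltransferase that exchanges serine and glycine with folate, had the deepest fall, -2.33 ± 0.18 (adjusted p = 3.60e-05) in KO and -2.85 ± 0.18 (adjusted p = 2.79e-05) in floxed livers. Its mitochondrial counterpart Shmt2 fell with a log2 change of -1.31 ± 0.19 (adjusted p = 0.000723) and -1.90 ± 0.19 (adjusted p = 0.000175) in the same order. Both were higher in injured KO livers, Shmt1 by 0.61 ± 0.18 (adjusted p = 0.0205) and Shmt2 by 0.54 ± 0.19 (adjusted p = 0.0449), calls that held in 16 and 8 of the 18 settings. Amt, the aminomethyltransferase of glycine cleavage, fell, with log2 changes of -1.41 ± 0.14 (adjusted p = 0.000137) in KO and -2.07 ± 0.14 (adjusted p = 4.00e-05) in floxed livers and was higher in injured KO livers by 0.58 ± 0.14 (adjusted p = 0.0111). Gldc, the decarboxylase of the same complex, Dmgdh, which demethylates dimethylglycine, and Agxt2, a mitochondrial aminotransferase, fell in both genotypes and did not pass between injured groups, with differences of 0.37 ± 0.26, 0.14 ± 0.19 and 0.02 ± 0.21. The floxed call of Dmgdh was lost under median centring (adjusted p = 0.113) and quantile normalisation (adjusted p = 0.0622). That of Agxt2 was lost under the same 2 settings (adjusted p = 0.0758 and 0.114). Both calls were also lost without the first H2O floxed library, where the log2 changes were -0.71 for Dmgdh and -0.65 for Agxt2.

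Transcripts of histidine breakdown fell together, with 4 of 4 enzymes lower in each genotype and medians of -2.04 in KO and -2.76 in floxed livers. Of all genes 40.7% fell in KO and 38.8% in floxed livers. Hal, the lyase of the first step, had 10.6 and 6.25 FPKM in KO and 6.91 and 8.93 FPKM in floxed livers after LPS/D-GalN. After H2O Hal had 91.4 and 79.1 FPKM in KO and 64.6 and 74.6 FPKM in floxed livers. No injured library came near an H2O library. Uroc1, which hydrates urocanate, had 52.9 and 40.3 FPKM in KO and 34.8 and 40.3 FPKM in floxed livers after LPS/D-GalN. After H2O Uroc1 had 296 and 232 FPKM in KO and 284 and 218 FPKM in floxed livers. In Hal and Uroc1 alike, all 4 injured libraries lay several-fold below all 4 H2O libraries, and the injured groups overlapped for Hal and met at the edge for Uroc1. Hal changed by -3.23 ± 0.25 (adjusted p = 3.97e-05) in KO and -2.99 ± 0.25 (adjusted p = 8.02e-05) in floxed livers, and its difference between injured groups, 0.05 ± 0.25 (adjusted p = 0.887), did not pass.

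Transcripts of the later histidine steps were higher in KO than in floxed livers after injury. Amdhd1, the imidazolonepropionase, had 48.4 and 31.8 FPKM in KO and 15.6 and 15.2 FPKM in floxed livers after LPS/D-GalN. After H2O Amdhd1 had 131 and 111 FPKM in KO and 122 and 108 FPKM in floxed livers. Both injured KO livers exceeded both injured floxed livers, by 1.30 ± 0.22 (adjusted p = 0.00239), and the interaction was 1.23 ± 0.32 (adjusted p = 0.021). Ftcd, which passes the formimino group of histidine to folate, had 163 and 98.4 FPKM in KO and 61.8 and 80.5 FPKM in floxed livers after LPS/D-GalN. After H2O Ftcd had 394 and 307 FPKM in KO and 338 and 307 FPKM in floxed livers. It fell in both genotypes, and its difference between injured groups, 0.84 ± 0.28 (adjusted p = 0.038), passed in 10 of the 18 settings, with an adjusted p of 0.198 without the first injured KO library and 0.201 without the first injured floxed library.

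Branched-chain catabolism had the smallest median change of the amino acid groups in floxed livers, -0.22, beside -0.28 over all genes. There 4 of 11 members fell and none rose, beside 38.8% and 18.5% of all genes, so the share that fell was near the background. In KO livers 8 of 11 fell and 1 rose, beside 40.7% and 22.3% of all genes, with a median of -0.75 against -0.28 over all genes. Aldh6a1, the dehydrogenase of valine breakdown, had 17.1 and 16.5 FPKM in KO and 35.98 and 32.7 FPKM in floxed livers after LPS/D-GalN. After H2O Aldh6a1 had 36.5 and 40.7 FPKM in KO and 38.00 and 35.8 FPKM in floxed livers. Injured KO livers were the lowest. Dbt, the E2 core of the branched-chain keto acid dehydrogenase, had 8.95 and 7.80 FPKM in KO and 17.98 and 16.7 FPKM in floxed livers after LPS/D-GalN. After H2O Dbt had 17.3 and 20.5 FPKM in KO and 18.1 and 16.99 FPKM in floxed livers. Here too the injured KO livers were the lowest. Mmut (the symbol in use for Mut), the mutase that makes succinyl-CoA, had 11.6 and 12.2 FPKM in KO and 22.8 and 21.98 FPKM in floxed livers after LPS/D-GalN. After H2O Mmut had 18.6 and 24.3 FPKM in KO and 19.4 and 19.4 FPKM in floxed livers. In each of these the injured KO livers were below all other libraries, and the injured floxed livers were close to H2O levels.

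The differences between injured KO and injured floxed livers were -0.99 ± 0.15 (adjusted p = 0.00149) for Aldh6a1, -0.97 ± 0.16 (adjusted p = 0.00171) for Dbt and -0.86 ± 0.17 (adjusted p = 0.00374) for Mmut. Their interactions were -1.05 ± 0.22 (adjusted p = 0.0092), -1.07 ± 0.22 (adjusted p = 0.00915) and -0.99 ± 0.23 (adjusted p = 0.0152) in the same order, and those of Aldh6a1 and Dbt passed in all 17 settings tried for the interaction. Aldh6a1 shares 18.6% of its exon length with another annotated gene. Ivd, the isovaleryl-CoA dehydrogenase of leucine breakdown, had 17.7 and 18.5 FPKM in KO and 20.7 and 23.6 FPKM in floxed livers after LPS/D-GalN. After H2O Ivd had 50.2 and 46.7 FPKM in KO and 47.6 and 43.4 FPKM in floxed livers. It fell in both genotypes, with changes of -1.37 ± 0.16 (adjusted p = 0.000222) in KO and -1.01 ± 0.16 (adjusted p = 0.00118) in floxed livers, and its difference between injured groups did not pass.

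Calls for subunits of the same branched-chain enzyme were not always alike. Pccb, the beta subunit of propionyl-CoA carboxylase, had 50.6 and 48.98 FPKM in KO and 38.1 and 40.1 FPKM in floxed livers after injury, against 22.2 and 35.5 FPKM in KO and 24.4 and 31.8 FPKM in floxed livers after H2O. It rose with a log2 change of 0.80 ± 0.24 (adjusted p = 0.02) in KO livers, a change lost without the first H2O KO library or either injured KO library (adjusted p = 0.106, 0.074 and 0.0619), and the change in floxed livers, 0.48 ± 0.24 (adjusted p = 0.126), did not pass. Pcca, its alpha subunit, passed in neither, with changes of -0.33 ± 0.21 (adjusted p = 0.21) in KO and -0.22 ± 0.21 (adjusted p = 0.395) in floxed livers. Bckdhb, the E1 beta subunit, fell in both, with changes of -0.60 ± 0.22 (adjusted p = 0.0423) in KO and -0.88 ± 0.22 (adjusted p = 0.00988) in floxed livers, though the KO call held in 6 of the 18 settings. Its floxed call was lost under median centring (adjusted p = 0.0553) and under quantile normalisation (adjusted p = 0.0534). That call was also lost without the first H2O floxed library (log2 change -0.76) and without the first injured floxed library (-0.75). Bckdha, the E1 alpha subunit, had changes of 0.05 ± 0.26 (adjusted p = 0.872) in KO and -0.03 ± 0.26 (adjusted p = 0.942) in floxed livers, which did not pass, and 61.7% of its exon length overlaps another gene. Mccc1, of methylcrotonyl-CoA carboxylase, and Hibadh, of valine breakdown, fell in both genotypes, and Mccc2, the partner of Mccc1, changed by -0.60 ± 0.19 (adjusted p = 0.0281) in KO, which passed, and -0.50 ± 0.19 (adjusted p = 0.0585) in floxed livers, which did not. The KO call of Mccc2 was lost under median centring (adjusted p = 0.142), with no filter (0.06) and in a fit of only the groups compared (0.0832). It was also lost without the second H2O KO library (log2 change -0.34) and without the second injured KO library (-0.51).

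All 3 proline and hydroxyproline enzymes were higher in KO than in floxed livers after injury, and Prodh2 had the largest positive difference of the 49 members. Prodh2, the hydroxyproline dehydrogenase, had 162 and 119 FPKM in KO and 15.6 and 17.9 FPKM in floxed livers after LPS/D-GalN. After H2O Prodh2 had 193 and 166 FPKM in KO and 163 and 181 FPKM in floxed livers. The first injured KO library came near the H2O livers and the second was lower, while both injured floxed livers were far below the other 6 libraries. It fell with a log2 change of -3.29 ± 0.21 (adjusted p = 3.17e-05) in floxed livers, and its KO change of -0.37 ± 0.21 (adjusted p = 0.159) did not pass. The KO change did pass under quantile normalisation (-0.62, adjusted p = 0.0261), and was -0.59 without the first injured KO library. Injured KO livers exceeded injured floxed livers by 2.98 ± 0.21 (adjusted p = 0.000146), and the interaction was 2.92 ± 0.30 (adjusted p = 0.00123).

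Prodh, the proline dehydrogenase, had 8.70 and 8.79 FPKM in KO and 3.55 and 5.59 FPKM in floxed livers after LPS/D-GalN. After H2O Prodh had 26.8 and 29.1 FPKM in KO and 33.9 and 23.96 FPKM in floxed livers. Injured floxed livers were the lowest. Aldh4a1, which carries the product of proline dehydrogenase on to glutamate, had 21.96 and 24.8 FPKM in KO and 15.1 and 16.9 FPKM in floxed livers after LPS/D-GalN. After H2O Aldh4a1 had 35.1 and 42.2 FPKM in KO and 38.9 and 39.5 FPKM in floxed livers. Aldh4a1 shares 32.5% of its exon length with another annotated gene. Prodh and Aldh4a1 fell in each genotype and were lower in both injured floxed than in both injured KO livers. The differences between injured groups were 0.83 ± 0.23 (adjusted p = 0.0171) for Prodh and 0.52 ± 0.17 (adjusted p = 0.0307) for Aldh4a1. The first was lost without either injured KO library (adjusted p = 0.0664 and 0.0625) or without the first injured floxed library (adjusted p = 0.118), and the second passed in 12 of the 18 settings, with an adjusted p of 0.154 without the first injured floxed library.

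**Figure D4:**
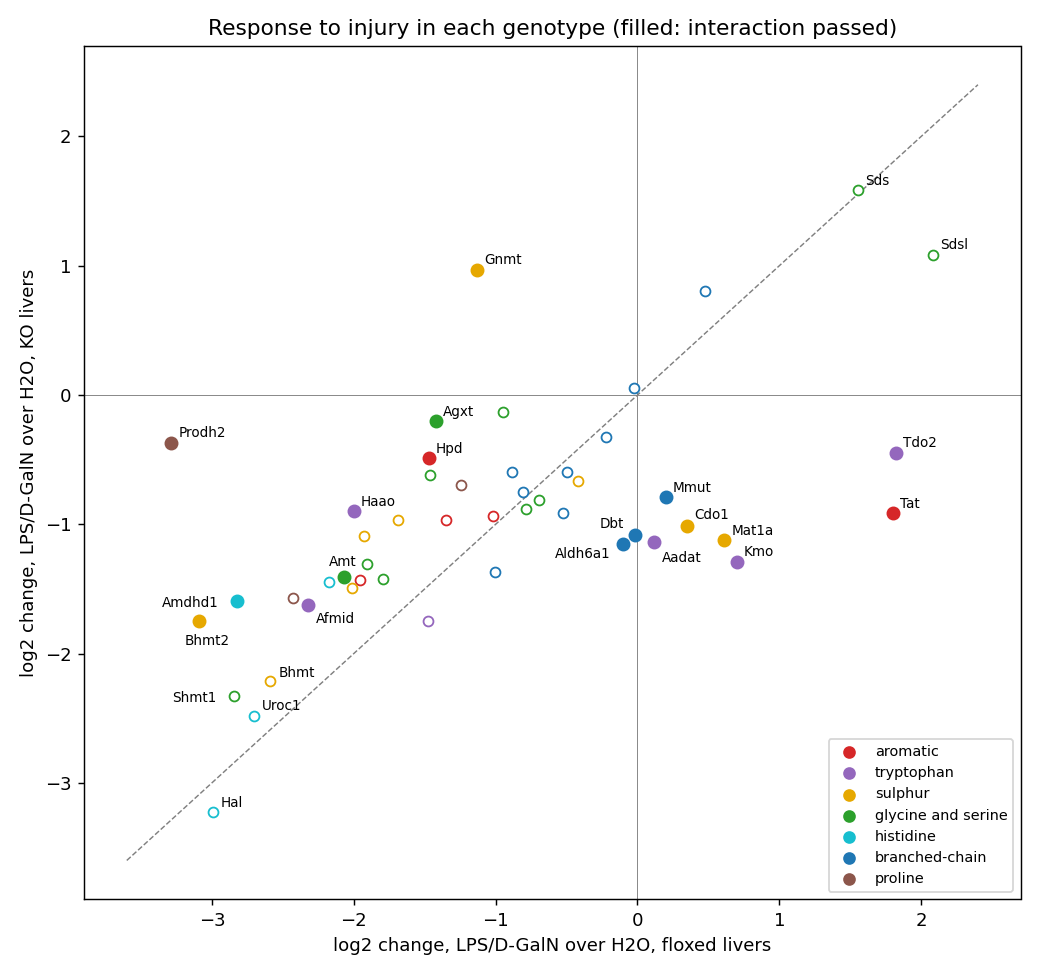
Log2 change under LPS/D-GalN against H2O in KO livers (vertical axis) and in floxed livers (horizontal axis) for the 49 members, coloured by amino acid group, with filled points where the interaction passed and a dashed line where the 2 changes are equal. Prodh2 and Gnmt lie farthest above the line, and Tat, Tdo2, Kmo and Mat1a farthest below it.

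The genotype by injury interaction, which tests whether the change under injury differs between KO and floxed livers, passed for 18 of the 49 members, 9 positive and 9 negative. Over all genes 20.9% were positive and 15.1% negative, so 18 of 49 was near the background. Of the 18, the calls for Aldh6a1, Dbt, Prodh2, Gnmt, Mat1a, Kmo and Tdo2 held in all 17 settings tried. By amino acid, 5 of 6 tryptophan members and 4 of 9 sulphur members passed, with 2 positive in each, against 2 of 5 aromatic, 2 of 11 glycine and serine, 1 of 4 histidine, 3 of 11 branched-chain and 1 of 3 proline members. Without the first injured floxed library 2 members were positive, and without the first H2O floxed library 4 were positive and 5 negative.

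Genes of neighbouring reactions were followed in lists of their own. Of 43 tested genes of other amino acid catabolism, 26 fell and 1 rose in KO livers and 29 fell and 3 rose in floxed livers, beside the 40.7% and 22.3% of all genes in KO and the 38.8% and 18.5% in floxed livers given above. Their median log2 changes were -0.70 in KO and -1.08 in floxed livers. After injury 9 were higher and 4 lower in KO than in floxed livers, beside 25.3% and 27.2% of all genes, with a median log2 difference of 0.03. Ethe1, the mitochondrial persulphide dioxygenase, was higher in injured KO livers by 2.12 ± 0.20 (adjusted p = 0.000298), and Gcat, which breaks down a product of threonine to glycine, by 1.62 ± 0.13 (adjusted p = 0.000182). Among 21 tested genes of the folate and methyl cycle, 12 fell and 5 rose in KO livers, beside 40.7% and 22.3% of all genes. In floxed livers 9 of them fell and 3 rose, beside 38.8% and 18.5% of all genes. Their median log2 changes were -0.66 in KO and -0.36 in floxed livers. After injury 5 of them were higher and 7 lower in KO than in floxed livers, beside 25.3% and 27.2% of all genes, with a median log2 difference of -0.15. No list was tested against the rest of the genes. Nnmt, which spends S-adenosylmethionine on nicotinamide, rose with a log2 change of 0.97 ± 0.25 (adjusted p = 0.0107) in KO and 3.49 ± 0.25 (adjusted p = 4.51e-05) in floxed livers, and was lower in injured KO livers by -2.12 ± 0.25 (adjusted p = 0.000577). Gamt, which spends it on creatine synthesis, fell in floxed livers with a log2 change of -2.42 ± 0.24 (adjusted p = 0.000156) and was higher in injured KO livers by 1.95 ± 0.24 (adjusted p = 0.000622). Of the 3 serine synthesis genes, 2 rose in KO livers and 1 in floxed livers, beside 22.3% and 18.5% of all genes. Psat1, the phosphoserine aminotransferase, rose with a log2 change of 1.85 ± 0.38 (adjusted p = 0.00362) in KO and 2.23 ± 0.38 (adjusted p = 0.00184) in floxed livers, and Phgdh, the first enzyme, rose in KO livers with a log2 change of 1.02 ± 0.14 (adjusted p = 0.000597), while its change in floxed livers, 0.37 ± 0.14 (adjusted p = 0.0572), did not pass. Psph, the phosphatase of the last step, had changes of -0.01 ± 0.15 (adjusted p = 0.975) in KO and -0.21 ± 0.15 (adjusted p = 0.262) in floxed livers, neither of which passed.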

How the data were processed

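RNA was extracted with TRIzol from whole liver of 8 samples in 4 groups, grouped by the genotype and treatment in the labels. NEBNext Ultra libraries were read on an Illumina NovaSeq, per the labels' protocols. The authors deposited 1 table of FPKM values with 55416 genes. The submitters' processing notes list DESeq2 3.15 and GRCm39. The sources used here give no aligner, annotation or use of strand. Of the 49 members 48 were matched by symbol and Mut by its Ensembl identifier, as Mmut. With GENCODE M21 exon lengths (52135 genes), between 98.2% and 98.5% of the values were within 0.01 of a whole number of fragments, which gave the depth of each library.

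The 13708 genes that reached 1 FPKM in 2 or more libraries were tested on log2(FPKM + 1) with limma 3.58.1 in R 4.3.3, with a trend in the variance and 1 mean per group over all 8 libraries, two-sided, with Benjamini-Hochberg adjustment at 0.05 in each of 6 comparisons. The added 1 FPKM understates the change of low genes. The model was tested on simulated data. Alternatives were array weights, quantile normalisation, median centring, no filter, a mean FPKM of 5 or more, a pseudocount of 0.1, a replicate block, a fit of only the groups compared, and each library left out. A lone library left in a group was taken to vary as the others do. Chosen after seeing the data were voom on recovered fragments and a scaling without mitochondrial and haemoglobin genes. The members, the lists and the settings were chosen with earlier results of these data known. Levels in every library are given for up to 4 members of each amino acid group, those with the largest passing difference between injured groups and then the largest passing change under injury. For each list of neighbouring reactions up to 6 genes with the smallest p could be named. Promoter sequences are from RefSeq on GRCm38.p6 and were matched by symbol, and the files' own coordinates were not used. Python 3.11.15, pandas 2.3.3, numpy 2.4.6 and matplotlib 3.10.9 gave the tables and plots.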

Additional observations from a re-analysis of the deposited data

Results flagged for a closer look

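The change under LPS/D-GalN differed between KO and floxed livers, by limma's test of the genotype by injury interaction, for 18 of the 49 members. Of these, 9 were positive and 9 negative, beside 20.9% and 15.1% of all genes tested, so the count was near the background. Values are log2 changes in KO livers minus log2 changes in floxed livers, so that a positive value means a smaller fall or a larger rise in KO livers. In tyrosine breakdown these were 0.99 for Hpd and -2.72 for Tat. In the tryptophan route they were 1.10 for Haao, 0.70 for Afmid, -1.26 for Aadat, -1.99 for Kmo and -2.27 for Tdo2. Among the sulphur enzymes they were 2.10 for Gnmt, 1.34 for Bhmt2, -1.36 for Cdo1 and -1.73 for Mat1a. The glycine and serine enzymes gave 1.22 for Agxt and 0.67 for Amt, and histidine breakdown gave 1.23 for Amdhd1. Branched-chain enzymes gave -0.99 for Mmut, -1.05 for Aldh6a1 and -1.07 for Dbt. Prodh2, of hydroxyproline breakdown, had the largest value, 2.92. The cause of these differences was not tested.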

How the results depend on the processing

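With 2 libraries per group, single libraries decided several calls. The losses named above for a gene are not a full list of the settings that lost its call. The members higher in KO than in floxed livers after injury numbered between 8 and 19 when 1 library was left out, against 19 with all libraries, and 12 under quantile normalisation. Members that rose under injury numbered between 2 and 4 in KO livers and between 3 and 6 in floxed livers. Positive interactions numbered between 2 and 9 and negative ones between 5 and 9 when 1 library was left out, and 5 were positive with no filter on low values. Under quantile normalisation Gstz1 in injured KO against injured floxed livers was -0.01, with the opposite sign, and the cause was not tested. Over the members' differences, 4898 alternatives kept their side of the threshold, 231 lost the call, 58 gained one and 1 reversed. Of the 4898, 161 passed neither with the main setting nor with the alternative and changed sign, 26 of them under quantile normalisation (Fah in injured KO against injured floxed livers was 0.05 and then -0.44) and 23 under median centring.

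The labels do not say that the replicate numbers of the titles pair the samples, and they name no shared litter or batch. Correlations of the deviations of same-numbered libraries ran between -0.104 and 0.27. With 2 libraries per group these correlations cannot decide whether the samples are paired. With the replicate number as a block, 17 members were higher and 10 lower in injured KO against injured floxed livers, 4 rose and 35 fell in KO livers, and 5 rose and 33 fell in floxed livers.

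Scaling shifts all genes, whose median log2 change under injury was -0.278 in KO and -0.282 in floxed livers. Under median centring, which sets that shift to about 0, 4 members rose and 32 fell in KO livers and 7 rose and 29 fell in floxed livers. The share of called genes that were higher moved from 35.4% to 48.2% in KO livers and from 32.3% to 49.7% in floxed livers.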

Other observations

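Of 18 tested amino acid transporters, 5 rose and 7 fell in KO livers, beside 22.3% and 40.7% of all genes, with a median log2 change of -0.10. In floxed livers 6 rose and 4 fell, beside 18.5% and 38.8% of all genes, with a median of 0.25. After injury 3 were higher and 6 lower in KO than in floxed livers, beside 25.3% and 27.2% of all genes. No difference between these genes and others was tested. Slc38a2, a sodium-coupled carrier of small neutral amino acids, rose by 1.93 ± 0.23 in KO and 2.19 ± 0.23 in floxed livers (log2 change ± SE, adjusted p = 0.000295 and 0.000223 by limma). Slc1a5, a glutamine and neutral amino acid carrier, was higher in KO than in floxed livers after injury by 1.08 ± 0.14 (adjusted p = 0.000769), and Slc3a2, the heavy chain of several exchangers, by 1.20 ± 0.24 (adjusted p = 0.00445). Slc7a2, a carrier of cationic amino acids, was lower there by a log2 difference of -1.84 ± 0.24 (adjusted p = 0.000798) and rose in floxed livers by 1.48 ± 0.24 (adjusted p = 0.00155). Slc6a13, a carrier of taurine and related amines, fell in both genotypes, with log2 changes of -1.96 ± 0.19 in KO and -2.43 ± 0.19 in floxed livers (adjusted p = 0.0001 and 6e-05).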
